A study of Mus musculus with 8 samples.

Results

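AP-1 is a family of transcription factors that bind DNA as pairs through a basic region and a leucine zipper (bZIP), and 10 genes of the family were followed here in neutrophils of the mouse spleen. The members were chosen by name, with earlier results of these data known. They are *Fos*, *Fosb* and *Fosl2* (Fos proteins), *Jun*, *Junb* and *Jund* (Jun proteins), *Atf3* and *Batf*, and the small Maf genes *Maff* and *Mafk*. They make up 10 of the 55414 gene identifiers counted in each library. All 10 passed the filter on low counts, which left 16778 genes for testing. WT mice and *Cxcr2-/-* mice were compared, 4 mice of each genotype, with 1 RNAseq library per mouse. All mice were 10 weeks old, on the FVB background and kept in a SOPF facility (free of specific and opportunistic pathogens), and the *Cxcr2-/-* mice, which carry a germline deletion present in every cell and not in neutrophils alone, had been backcrossed to FVB. Spleens were mashed, red blood cells were lysed, CD11b+ cells were enriched by positive selection and CD45+ CD11b+ Ly6G+ F4/80- cells were sorted. A library is a bulk measurement, so that fewer cells making a transcript and less of it per cell cannot be told apart.

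Fos proteins do not form stable pairs among themselves and need a Jun partner, whereas Jun proteins also pair with each other. Most of these genes are immediate early genes, which are transcribed within minutes of a stimulus from factors already present in the cell, through mitogen-activated protein (MAP) kinases, the serum response factor (SRF) and CREB, and whose RNAs are quickly degraded. In neutrophils, chemokine and adhesion signals feed these kinases. Cutting, enzyme treatment and sorting of tissue are also known to induce *Fos*, *Jun*, *Atf3* and *Egr1*, and the part of handling in the values below was not tested.

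Sequences before the transcription start are given first for 4 members, because the same core of a CREB/ATF binding site, TGACGT, or a close variant lies in them. The windows searched were the 300 bases around each RefSeq start (GRCm38.p6), 12 windows for the 10 genes, on both strands. TGACGT was found in 4 of the 12 windows, those of *Fos*, *Atf3*, *Maff* and *Batf*, and in 7.51% of the 32851 windows of all genes. In *Maff* it is part of the full palindrome TGACGTCA, which 1.79% of all windows hold. TGACATCA, the variant described in the *Jun* promoter, was found in 2 windows, those of *Jun* and of another start of *Maff*, against 3.62% of all windows. Neither TGANTCA, the site of Fos-Jun pairs (7.81% of all windows), nor the CArG box of SRF (1.63%) was matched in any of the 12 windows, which says only that these letters are not in them. The 120 bases before the start are shown 5′ to 3′ along the gene's own strand, with the match in capitals. In *Atf3* the match lies on the opposite strand and reads ACGTCA.
Fos, chr12:85473770-85473889, plus strand: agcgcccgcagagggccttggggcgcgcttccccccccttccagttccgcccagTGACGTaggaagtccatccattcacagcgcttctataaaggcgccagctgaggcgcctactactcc
Jun, chr4:95052223-95052342, minus strand: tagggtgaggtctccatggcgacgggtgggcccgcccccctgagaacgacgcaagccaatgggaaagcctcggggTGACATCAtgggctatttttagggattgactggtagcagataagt
Atf3, chr1:191183334-191183453, minus strand: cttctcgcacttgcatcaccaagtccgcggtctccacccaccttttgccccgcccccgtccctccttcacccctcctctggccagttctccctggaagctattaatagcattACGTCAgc
Maff, chr15:79347400-79347519, plus strand: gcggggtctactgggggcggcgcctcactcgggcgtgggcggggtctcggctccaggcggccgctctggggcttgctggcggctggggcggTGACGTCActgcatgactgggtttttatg

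The match begins 66 bases before the start in *Fos*, 45 in *Jun*, 8 in *Atf3* and 29 in *Maff*, and the TGACGT of *Batf* begins 98 bases before its start. RefSeq and the GENCODE M21 annotation place some starts apart. The RefSeq start of *Atf3* lies 34706 bases inside the longest M21 gene model, and that of *Maff* used here lies 899 bases inside its model. No binding was measured in these samples.

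The counts on genes summed to between 34220182 and 46233555 per library. *Cxcr2*, the targeted gene, fell from 1956 ± 221 CPM (counts scaled by the TMM-normalized library size, mean ± SD, n = 4) in WT to 17.1 ± 3.46 CPM in *Cxcr2-/-* neutrophils. The 6 neutrophil markers were present in every library. At an adjusted p under 0.05 (edgeR), 3 of them were higher in *Cxcr2-/-* cells, 2 were lower and 1 did not pass. Beside these and the marker counts below, 23.7% of all genes tested were higher and 21.0% lower by this rule. *Ly6g* rose from 226 ± 41.5 to 539 ± 50.5 CPM in *Cxcr2-/-* cells. Of the 10 genes of immature neutrophils, such as *Mpo*, *Ltf* and *Camp*, 10 were higher in *Cxcr2-/-* cells, with a summed level between 19707 and 23739 CPM in WT and between 45307 and 64334 CPM in *Cxcr2-/-* libraries. Of 38 markers of other cells, none was at 0 in all 8 libraries, *Mcpt8* was at 0 in all 4 WT libraries, and 9 of the 31 tested were lower and 3 higher in *Cxcr2-/-*. Their sum was between 678 and 808 CPM in WT and between 386 and 552 CPM in *Cxcr2-/-* libraries. *Csf1r* alone made up 59.3% to 65.2% of it in WT and 47.0% to 51.2% in *Cxcr2-/-* libraries (442 ± 41.1 CPM in the WT mice, 232 ± 42.1 CPM in the *Cxcr2-/-* mice). Without the 4 markers above 20 CPM in WT (*Csf1r*, *Cd3d*, *Siglecf* and *Adgre1*, the gene of F4/80), the sums were 54.4 to 136 CPM in WT and 39.5 to 145 CPM in *Cxcr2-/-* libraries and overlapped. The sums of the immature neutrophil genes and of all 38 markers moved with the genotype, and their part in the results below was not tested.

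All 10 AP-1 members fell in *Cxcr2-/-* neutrophils at an adjusted p under 0.05 (edgeR's quasi-likelihood test, Benjamini-Hochberg adjustment over all genes tested). Of all genes tested, 21.0% fell and 23.7% rose by the same rule. With a change of at least 1.5-fold added, 8 of the 10 fell, all but *Fosl2* and *Batf*, against 15.7% of all genes. In each of the 10, every *Cxcr2-/-* library lay below every WT library, which held for 19.1% of all genes. The median log2 fold change (*Cxcr2-/-* over WT) was -1.57 for the members and 0.01 for all genes tested. Because the members were chosen with earlier results of these data known, these counts describe the 10 genes and do not test the family. Of 14 other AP-1 genes and bZIP partners, 4 fell, 2 rose and 8 did not pass at an adjusted p under 0.05. *Atf3*, *Fos* and *Fosb* changed the most and *Fosl2* and *Batf* the least. With the level of non-neutrophil markers as a covariate, which separates the genotypes as well, 4 of the 10 passed, with smaller log2 fold changes of -1.51 for *Fos* (adjusted p = 0.00751), -0.86 for *Junb* (0.0405), -1.01 for *Jund* (0.0252) and -1.55 for *Atf3* (0.0192). The other 6, *Fosb*, *Fosl2*, *Jun*, *Maff*, *Mafk* and *Batf*, had values between -1.02 and -0.25 and adjusted p from 0.0516 to 0.653. Among them *Fosl2* had a larger fall than without the covariate (-0.71 against -0.53). With this covariate 1173 of all 16778 genes tested fell and 1587 rose, against 3526 and 3969 without it.

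**Figure D1:**
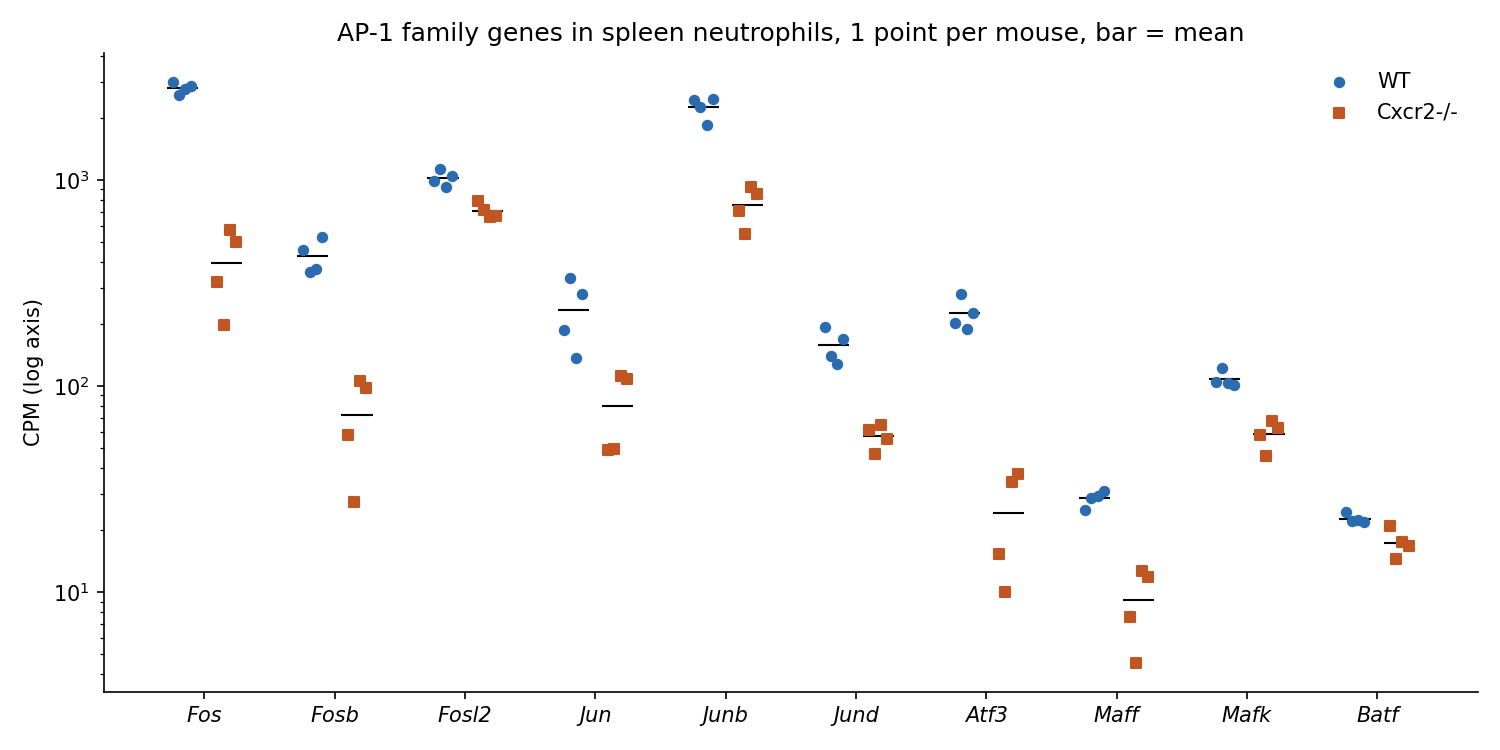
Expression of the 10 AP-1 members in each library, as CPM on a log axis, with WT mice as circles, *Cxcr2-/-* mice as squares and the group mean as a bar. For every gene the 4 *Cxcr2-/-* points lie below the 4 WT points, from 9.27-fold in the group fold of *Atf3* to 1.31-fold in that of *Batf*.

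Among the Fos proteins, which carry the activation domains of many AP-1 pairs, *Fos* and *Fosb* fell strongly and *Fosl2* weakly. *Fos* (ENSMUSG00000021250, chr12:85473890-85477273, plus strand, GRCm38), the founding member of the family, was at 2982, 2593, 2754 and 2845 CPM in WT replicates 1 to 4, and at 320.0, 197, 572 and 498 CPM in *Cxcr2-/-* replicates 1 to 4. The 4 WT mice lay close together, and replicate 2 was the lowest and replicate 3 the highest of the *Cxcr2-/-* mice. Its mean went from 2794 ± 163 to 397 ± 170 CPM (log2 fold change -2.82, SE 0.27, adjusted p = 4.93e-06), 7.04-fold lower in *Cxcr2-/-* cells.

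*Fosb* (ENSMUSG00000003545, chr7:19302696-19310051, minus strand), a close relative of *Fos* that is also induced by stimuli, was at 457, 359, 372 and 529 CPM in WT replicates 1 to 4. In *Cxcr2-/-* replicates 1 to 4 it was at 57.6, 27.3, 105 and 97.7 CPM. Replicate 2 was again the lowest *Cxcr2-/-* mouse and replicate 3 the highest, and the groups were far apart. The mean of *Fosb* fell from 429 ± 79.6 to 72.0 ± 36.5 CPM (log2 fold change -2.57, SE 0.33, adjusted p = 5.25e-05).

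*Fosl2* (ENSMUSG00000029135, chr5:32135801-32157842, plus strand) encodes Fra-2, a Fos protein without the C-terminal activation domain of Fos. It was at 984, 1134, 919.7 and 1043 CPM in the 4 WT mice and 787, 717, 659 and 669 CPM in the 4 *Cxcr2-/-* mice, by replicate number. The groups did not overlap, but here replicate 1 was the highest and replicate 3 the lowest of the *Cxcr2-/-* mice. The mean went from 1020.2 ± 90.9 to 708 ± 58.3 CPM (log2 fold change -0.53, SE 0.11, adjusted p = 0.00149), which is 1.44-fold and less than the fold threshold.

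The 3 Jun genes fell to a like extent, with log2 fold changes between -1.57 and -1.47. *Junb* (ENSMUSG00000052837, chr8:84974484-84978718, minus strand), a partner of Fos proteins with weaker activation than Jun, was at 2436, 2244, 1845 and 2481 CPM in WT replicates 1 to 4. It was at 709.7, 543, 921 and 850.5 CPM in *Cxcr2-/-* replicates 1 to 4. WT replicate 3 was the lowest WT mouse and still stood above the highest *Cxcr2-/-* mouse. The mean of *Junb* fell from 2252 ± 289.7 to 756 ± 167 CPM (log2 fold change -1.57, SE 0.17, adjusted p = 1.06e-05).

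*Jun* (ENSMUSG00000052684, chr4:95049034-95052222, minus strand), the target of the JNK kinases, was at 187, 336, 136 and 279 CPM in the 4 WT mice and 48.9, 49.5, 112 and 108 CPM in the 4 *Cxcr2-/-* mice, by replicate number. It had the widest spread of the members among WT mice, with a coefficient of variation of 38.3%, and WT replicate 3 came close to *Cxcr2-/-* replicates 3 and 4. The mean went from 234 ± 89.7 to 79.6 ± 35.2 CPM (log2 fold change -1.56, SE 0.32, adjusted p = 0.00165). With the share of read pairs that met no gene as a covariate, its adjusted p was 0.160.

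*Jund* (ENSMUSG00000071076, chr8:70698949-70700616, plus strand), the Jun gene usually held at a steady level, was at 194, 139.9, 128 and 169 CPM in WT replicates 1 to 4. It was at 61.4, 46.5, 64.8 and 55.4 CPM in *Cxcr2-/-* replicates 1 to 4. The *Cxcr2-/-* mice lay close together, well below the lowest WT mouse. The mean of *Jund* fell from 158 ± 29.9 to 57.0 ± 8.0 CPM (log2 fold change -1.47, SE 0.14, adjusted p = 5.73e-06).

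*Atf3* (ENSMUSG00000026628, chr1:191170296-191218039, minus strand), a stress-induced factor that pairs with Jun proteins and mostly represses when paired with itself, had the largest fall of the 10. It was at 203, 280.1, 189.9 and 227 CPM in the 4 WT mice and 15.2, 10.0, 34.3 and 37.4 CPM in the 4 *Cxcr2-/-* mice, by replicate number. The lowest WT mouse stood several-fold above the highest *Cxcr2-/-* mouse. The mean went from 225 ± 39.8 to 24.2 ± 13.6 CPM (log2 fold change -3.21, SE 0.35, adjusted p = 1.36e-05), 9.27-fold lower, and 33 of the 16778 genes, 0.197%, had a fall at least as large, *Atf3* included.

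The small Maf proteins have a bZIP domain but no activation domain, and pair with Nfe2, Nrf and Bach proteins as well as with Fos. *Maff* (ENSMUSG00000042622, chr15:79346621-79359076, plus strand) was at 25.1, 28.5, 29.3 and 31.0 CPM in the 4 WT mice and 7.56, 4.54, 12.6 and 11.8 CPM in the 4 *Cxcr2-/-* mice, by replicate number. The order of the *Cxcr2-/-* mice was that of *Fos* and *Fosb*, with replicate 2 lowest and replicate 3 highest. The mean went from 28.5 ± 2.45 to 9.13 ± 3.78 CPM (log2 fold change -1.64, SE 0.24, adjusted p = 1.67e-04).

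*Mafk* (ENSMUSG00000018143, chr5:139791513-139802653, plus strand), the small Maf that pairs with Nfe2 in blood cells, was at 105, 122, 103 and 101 CPM in WT replicates 1 to 4. It was at 57.9, 45.6, 67.3 and 62.7 CPM in *Cxcr2-/-* replicates 1 to 4. The groups were tight and apart, at a smaller distance than for *Maff*. The mean of *Mafk* fell from 108 ± 9.61 to 58.4 ± 9.35 CPM (log2 fold change -0.88, SE 0.12, adjusted p = 7.51e-05), 1.85-fold lower.

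*Batf* (ENSMUSG00000034266, chr12:85686669-85709087, plus strand) encodes a small bZIP protein without an activation domain that pairs with Jun proteins and acts with IRF factors in lymphocytes and dendritic cells. It was at 24.4, 22, 22.3 and 21.9 CPM in the 4 WT mice and 20.9, 14.4, 17.4 and 16.7 CPM in the 4 *Cxcr2-/-* mice, by replicate number. The lowest WT mouse and the highest *Cxcr2-/-* mouse lay almost side by side. The mean went from 22.7 ± 1.17 to 17.4 ± 2.68 CPM (log2 fold change -0.38, SE 0.12, adjusted p = 0.0178), 1.31-fold lower. Without WT replicate 1 the adjusted p was 0.0517 and without *Cxcr2-/-* replicate 2 it was 0.0576, so that the call rested on these libraries.

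**Figure D2:**
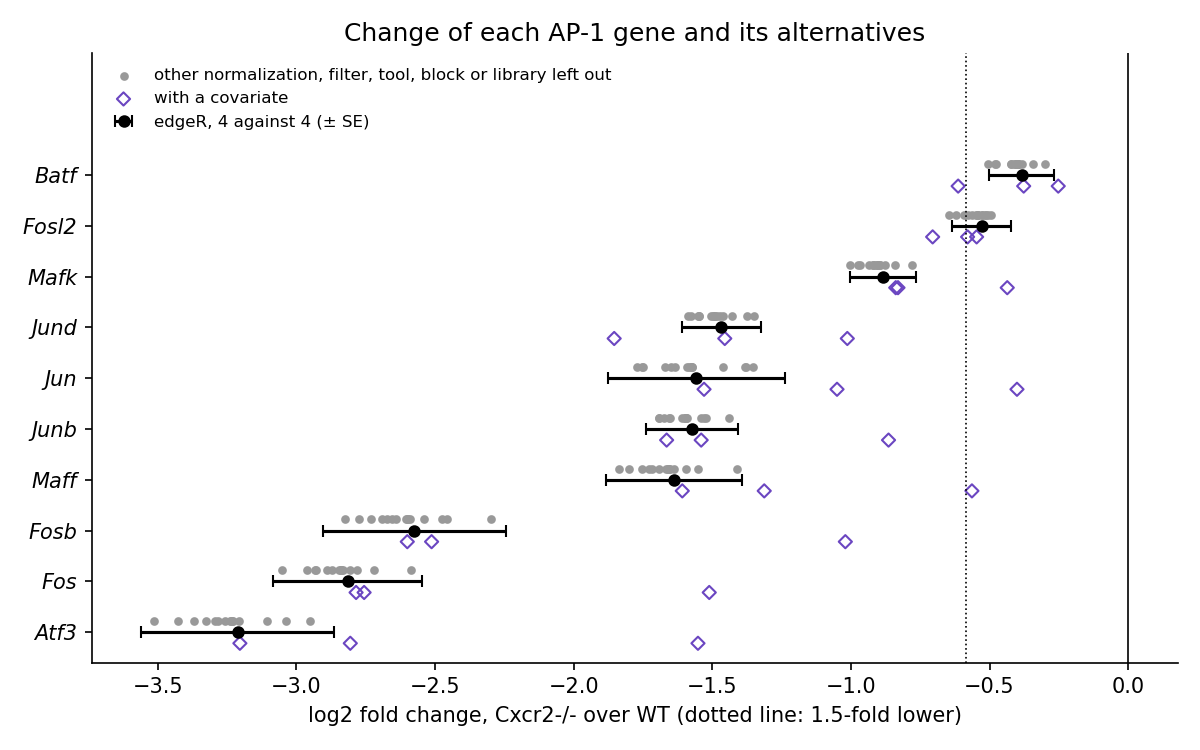
Log2 fold change of each member (*Cxcr2-/-* over WT, edgeR, black points with bars of ± 1 SE), ordered by size, with the values under other normalizations, filters, tools or with a library left out (grey points) and with a covariate (diamonds). The dotted line marks 1.5-fold. All points lie below 0, with the black points from -3.21 for *Atf3* to -0.38 for *Batf*, and the diamond nearest to 0, in every gene but *Fosl2*, is that of the non-neutrophil marker level.

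The spans of 5 members, introns included, overlap a gene on the other strand, and overlap of their exons was not checked. The strand setting of the counting is not given in the sources used here. Any effect of these genes on the member counts was not tested. *Junos*, antisense to *Jun*, went from 6.57 ± 1.04 to 10.1 ± 0.877 CPM (log2 fold change 0.63, adjusted p = 0.00408), the direction opposite to *Jun*. *Prdx2*, antisense to *Junb*, was at 2.66 ± 0.25 and 3.31 ± 1.37 CPM (adjusted p = 0.408). *Gm11175*, antisense to *Jund*, had no counts in any library, and *Gm24748* overlaps *Atf3*. *Tmem184a*, which overlaps *Mafk*, went from 3.92 ± 1.13 to 1.30 ± 0.556 CPM (log2 fold change -1.59, adjusted p = 0.00114), the same direction as *Mafk* at a level far below it.

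To compare levels between genes, CPM was divided by the length of exon in the M21 annotation (CPM per kb). In WT neutrophils *Fos* (1188 ± 69.4 CPM per kb) stood above *Junb* (979 ± 126), and the 2 genes stood several-fold above the rest without overlap between their libraries. *Fosl2*, *Atf3*, *Jund*, *Jun* and *Fosb* followed at mean levels from 105 down to 68.7 CPM per kb. The range of each over the WT mice overlapped that of its neighbour in that order. *Mafk* (27.6 ± 2.46), *Batf* (16.1 ± 0.833) and *Maff* (11.0 ± 0.946 CPM per kb) came last, each below the one before it in every library. *Fos* and *Junb* were thus the most abundant Fos and Jun transcripts of the WT cells.

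In *Cxcr2-/-* neutrophils the order was another. *Junb* (329 ± 72.6 CPM per kb) came before *Fos* (169 ± 72.4), although the ranges of the 2 genes over the 4 mice overlapped. Within each library *Junb* stood above *Fos*. *Junb* took 46.9% to 50.2% of the summed level per kb of the 10 members there, and *Fos* 17.8% to 28.5%. *Fosl2* (73.1 ± 6.03) stood below *Fos* and above *Jund* (34.2 ± 4.80 CPM per kb) without overlap. From *Jund* through *Jun*, *Mafk*, *Batf*, *Fosb* and *Atf3* to *Maff* (3.52 ± 1.46 CPM per kb), the range of each gene over the mice overlapped that of its neighbour. Within each *Cxcr2-/-* library *Maff* was still below *Atf3*. *Atf3*, the fourth of the WT order, was the ninth here.

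The make-up of the Fos group was set apart by genotype, and that of the Jun group was not. *Fos* made up 87.2% ± 1.06 (SD, n = 4) of the summed Fos-group level per kb in WT and 64.3% ± 10.4 in *Cxcr2-/-* cells, between 86.3% and 88.3% and between 51.6% and 74.1%. *Fosl2* took 7.77% ± 0.976 in WT and 31.4% ± 11.6 in *Cxcr2-/-* cells, from 20.7% to 45.7% there. These shares follow from the member changes given above and were not tested.

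Of the Jun group, *Junb* made up 85.4% ± 1.38 in WT and 84.8% ± 0.534 in *Cxcr2-/-* cells. *Jund* made up 8.23% ± 0.923 and 8.99% ± 1.29, and *Jun* 6.33% ± 2.08 and 6.24% ± 1.64, so that the libraries of the genotypes overlapped for each of the 3. The sum of the Fos group went from 1362 ± 74.6 to 253 ± 74.2 CPM per kb and that of the Jun group from 1147 ± 156 to 388 ± 86.3 CPM per kb. The Fos sum stood above the Jun sum in the WT means and below it in the *Cxcr2-/-* means.

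**Figure D3:**
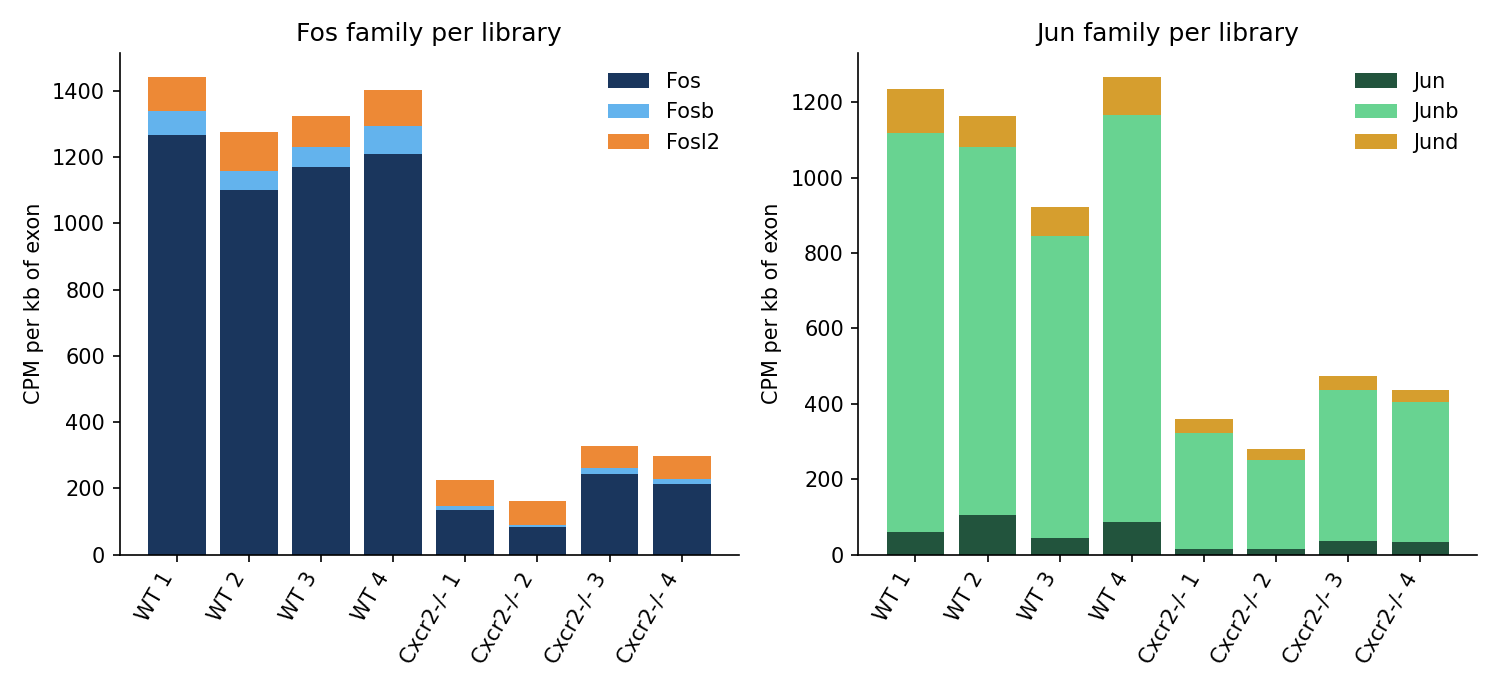
Summed level of the Fos group (left) and of the Jun group (right) in each library, as stacked bars in CPM per kb of exon, coloured by gene. The Fos sum lies between 1277 and 1443 in WT and between 162 and 328 in *Cxcr2-/-* libraries, and *Fosl2* takes a larger part of the *Cxcr2-/-* bars, while *Junb* makes up most of every bar on the right.

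The members also varied among the mice of a genotype, mostly in the *Cxcr2-/-* group. *Cxcr2-/-* replicate 2 was the lowest of its group for 8 of the 10 members, and replicate 3 the highest for 7. On average over the members, replicate 2 lay 0.57 below and replicates 3 and 4 lay 0.38 and 0.30 above the group mean on the log2 (CPM + 1) scale. Replicate 1 stood at -0.10. The WT mice lay between -0.19 (replicate 3) and 0.10 (replicate 4) of their group mean. In *Cxcr2-/-* mice the coefficient of variation was 56.2% for *Atf3*, 50.6% for *Fosb* and 42.9% for *Fos*, and 8.24% for *Fosl2*, whereas that of *Fos* in WT was 5.85%.

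The sums of the 34 low markers of other cells had a similar order in the *Cxcr2-/-* mice, at 54.4, 39.5, 113 and 145 CPM in replicates 1 to 4. *Mpo*, a gene of early granulocyte precursors, was at 19.1, 20.2, 81.2 and 145.8 CPM in the same mice. Replicates 3 and 4 were thus higher than replicates 1 and 2 in the mean of the members, in the low markers and in *Mpo*. The summed level of the immature neutrophil genes, *Mpo* among them, was instead lower in replicates 3 and 4. It was 64334, 54446, 51817 and 45307 CPM in *Cxcr2-/-* replicates 1 to 4. The part of any of these in the spread was not tested. In the WT mice the sums of the low markers were 111, 136, 98.2 and 54.4 CPM, and WT replicate 4, the lowest of them, had the highest mean member deviation. With the low markers as a covariate, chosen after seeing the data, 10 of 10 members passed and 8 had a change of at least 1.5-fold.

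The deviations of many, but not all, members from their group means went together over the 8 libraries. For the 28 pairs of the members without *Fosl2* and *Batf*, Pearson's r was between 0.29 and 0.97 with a median of 0.80, and it was 0.97 for *Fos* and *Fosb* and 0.96 for *Fos* and *Maff*. *Fosl2* had an r between -0.46 and 0.25 with the other members (median -0.13), and *Batf* between -0.14 and 0.63 (median 0.36). Among the 28 pairs, *Jund* had an r of 0.29 with *Jun*, 0.33 with *Atf3*, 0.36 with *Mafk* and 0.37 with *Maff*. Its r was 0.55 with *Fos*, 0.64 with *Fosb* and 0.77 with *Junb*. The median of 0.80 leaves out *Fosl2* and *Batf*, whose r was low, and is no test of the family. These values are descriptions over 8 libraries in which all genes share the library and its depth. No r of pairs of other genes is given beside them. *Fosl2* and *Batf* were also the members that changed the least between genotypes.

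**Figure D4:**
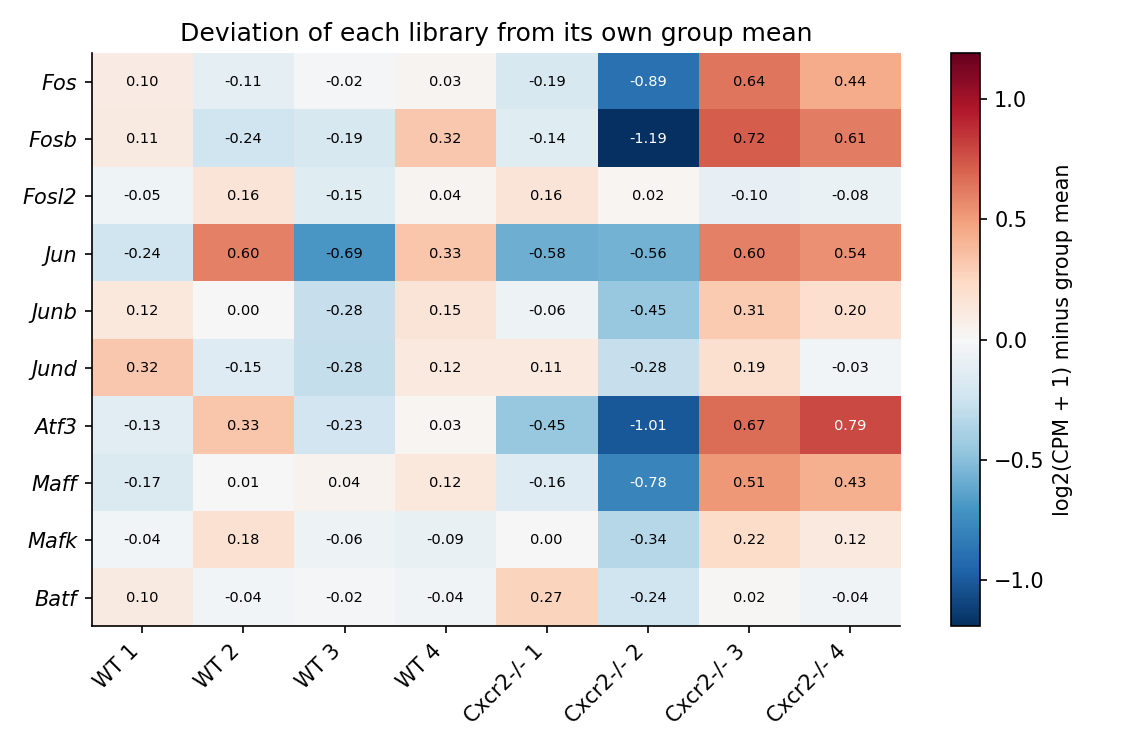
Heat map of the deviation of each member (rows) from the mean of its own genotype, in log2 (CPM + 1), for the 8 libraries (columns), red above and blue below the mean. *Cxcr2-/-* replicate 2 is low (mean over members -0.57) and replicates 3 and 4 are high (0.38 and 0.30) in most members, and apart from *Jun* the WT columns are paler.

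The 5 genes whose deviations were most like the members' mean over the 8 libraries were *Tubb6* (r = 0.995), *Slc41a1* (0.986), *Trio* (0.970), *Ddx24* (0.970) and *Map4k1* (0.965). Between genotypes they did not move alike. *Tubb6*, a beta tubulin, fell (log2 fold change -1.57, adjusted p = 2.72e-04) and so did *Ddx24* (-0.38, adjusted p = 0.00692), while *Slc41a1*, a magnesium transporter, rose (0.75, adjusted p = 0.00197). *Trio* (-0.28, adjusted p = 0.302) and *Map4k1* (0.26, adjusted p = 0.168) did not pass.

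Of the 14 other AP-1 genes and bZIP partners tested, 4 fell, 2 rose and 8 did not pass, with a median log2 fold change of 0.00, next to 0.01 for all genes. By the same rule 21.0% of all genes tested fell and 23.7% rose. With the share of pairs that met no gene as a covariate, 1 of the 14 passed (*Batf3*, lower). *Batf3*, a relative of *Batf* known from dendritic cells, fell from 3.18 ± 0.703 to 0.843 ± 0.216 CPM (log2 fold change -1.91, SE 0.26, adjusted p = 7.56e-05), and *Maf*, a large Maf protein, fell from 6.04 ± 2.04 to 1.73 ± 1.01 CPM (-1.80, adjusted p = 0.00196). *Nfe2*, the partner of small Maf proteins, rose from 244 ± 23.5 to 369 ± 65.4 CPM (log2 fold change 0.59, adjusted p = 0.00236). *Mafg*, the small Maf gene outside the 10, rose too (0.54, adjusted p = 0.00996), the opposite direction to *Maff* and *Mafk*, but stood at -0.08 (adjusted p = 0.861) with the non-neutrophil covariate. *Fosl1*, which encodes Fra-1, was at 4.06 ± 1.2 and 4.07 ± 2.66 CPM (log2 fold change 0.01, adjusted p = 0.986). *Nfe2l2* and *Bach2* were the other genes that fell.

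Of the 23 kinases and SRF/CREB factors upstream of AP-1 that were tested, 5 fell, 10 rose and 8 did not pass. By the same rule 21.0% of all genes fell and 23.7% rose. The median log2 fold change of the 23 was 0.26. The balance of rises and falls depended on the scaling, with 7 lower and 6 higher under upper-quartile factors and 6 lower and 6 higher under total counts. None of the rises passed with either planned covariate, and the 3 genes that passed had fallen (*Rps6ka5*, *Elk3* and *Elk4* with the non-neutrophil marker level, *Rps6ka5*, *Elk3* and *Mapk14* with the share of pairs that met no gene). *Map2k1* and *Map2k4*, kinases that activate ERK and JNK, rose without a covariate (0.54, adjusted p = 6.76e-04, and 0.49, adjusted p = 4.88e-04), and had adjusted p of 0.164 and 0.276 with the non-neutrophil covariate. *Mrtfb*, a coactivator of SRF, rose from 8.08 ± 1.63 to 12.7 ± 1.89 CPM (0.64, adjusted p = 0.00635), and had an adjusted p of 0.572 with that covariate. *Rps6ka5*, the kinase MSK1, fell (-0.63, adjusted p = 1.81e-04), and so did *Elk3*, an SRF partner (-0.57, adjusted p = 2.45e-04). *Srf* itself was at 55.0 ± 8.96 and 54.1 ± 9.63 CPM (log2 fold change -0.02, adjusted p = 0.915). RNA levels of kinases say nothing of their activity, which was not measured in these libraries.

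Genes that end AP-1 signals, by removing phosphate from MAP kinases, degrading short-lived RNAs or marking Jun proteins for degradation, were tested next. Of 13 tested, 8 fell, 0 rose and 5 did not pass, with a median log2 fold change of -0.65, and 44.7% of all genes changed in either direction. With the non-neutrophil covariate 3 of the 13 passed, *Dusp1* and *Zfp36l2* lower and *Zfp36l1* higher. *Dusp1*, the MAP kinase phosphatase induced with AP-1, was at 3698 ± 369 CPM in the WT mice and fell to 725 ± 262 CPM in the *Cxcr2-/-* mice (log2 fold change -2.35, SE 0.23, adjusted p = 5.81e-06). *Dusp6*, the phosphatase of ERK, fell less (-0.88, adjusted p = 6.54e-05). *Zfp36* and *Zfp36l2*, which bind AU-rich RNAs and promote their decay, fell (-1.30, adjusted p = 6.67e-05, and -1.18, adjusted p = 2.57e-06), while *Zfp36l1* was at 0.03 (adjusted p = 0.934).

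Of 15 genes known as AP-1 targets, 9 fell, 4 rose and 2 did not pass, with a median log2 fold change of -0.76. Over all genes tested, 21.0% fell and 23.7% rose. With the non-neutrophil covariate 2 of the 15 passed, *Ptgs2* lower and *Plau* higher, and with the share of pairs that met no gene 6 fell and 1 rose. *Ptgs2*, which encodes cyclooxygenase-2, fell from 741 ± 124 to 79.3 ± 45.2 CPM (log2 fold change -3.22, SE 0.35, adjusted p = 1.42e-05). *Icam1*, an adhesion molecule, and *Cd44*, a hyaluronan receptor, fell as well (-1.47, adjusted p = 2.05e-05, and -0.76, adjusted p = 7.14e-05). *Plau*, the urokinase gene, went the other way, from 25.1 ± 3.41 to 69.3 ± 14.7 CPM (1.47, adjusted p = 8.79e-06), and *Mmp9*, *Tnf* and *Hmox1* were the other genes that rose. *Timp1* was listed at 0.237 ± 0.0899 and 0.225 ± 0.0886 CPM (log2 fold change -0.10, adjusted p = 0.879).

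Of 14 other immediate early genes tested, 11 fell, 0 rose and 3 did not pass, with a median log2 fold change of -1.54. Among all genes tested, 21.0% fell and 23.7% rose. *Egr1*, a zinc finger factor induced through SRF, fell from 771 ± 126 to 66.1 ± 49.5 CPM (log2 fold change -3.54, SE 0.45, adjusted p = 4.86e-05). *Btg2* (-1.80, adjusted p = 1.37e-07), *Ier5* (-1.55, adjusted p = 1.83e-06), *Ier2* (-1.35, adjusted p = 2.67e-06) and *Klf6* (-1.21, adjusted p = 2.62e-06) fell, and *Ier3* did not pass (-0.20, adjusted p = 0.106). Their summed level was between 5711 and 7143 CPM in WT and between 1784 and 2220 CPM in *Cxcr2-/-* libraries. With the non-neutrophil covariate 6 of the 14 passed, 5 lower and *Klf4* higher, and *Egr1* was not among them.

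Heat shock genes are another group that handling of tissue is known to induce. Of 10 tested, 3 fell, 1 rose and 6 did not pass, while 44.7% of all genes changed in either direction. Their median log2 fold change was -0.27. The summed level of the listed heat shock genes was between 679.9 and 759.9 CPM in WT and between 656 and 702 CPM in *Cxcr2-/-* libraries. Whether handling differed between the genotypes was not tested. *Dnaja1* (-1.08, adjusted p = 1.55e-05), *Dnajb1* (-0.62, adjusted p = 2.70e-04) and *Hspe1* (-1.28, adjusted p = 0.0208) fell, *Hsp90ab1* rose (0.73, adjusted p = 2.99e-05), and *Hsph1* was at 0.07 (adjusted p = 0.919).

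**Figure D5:**
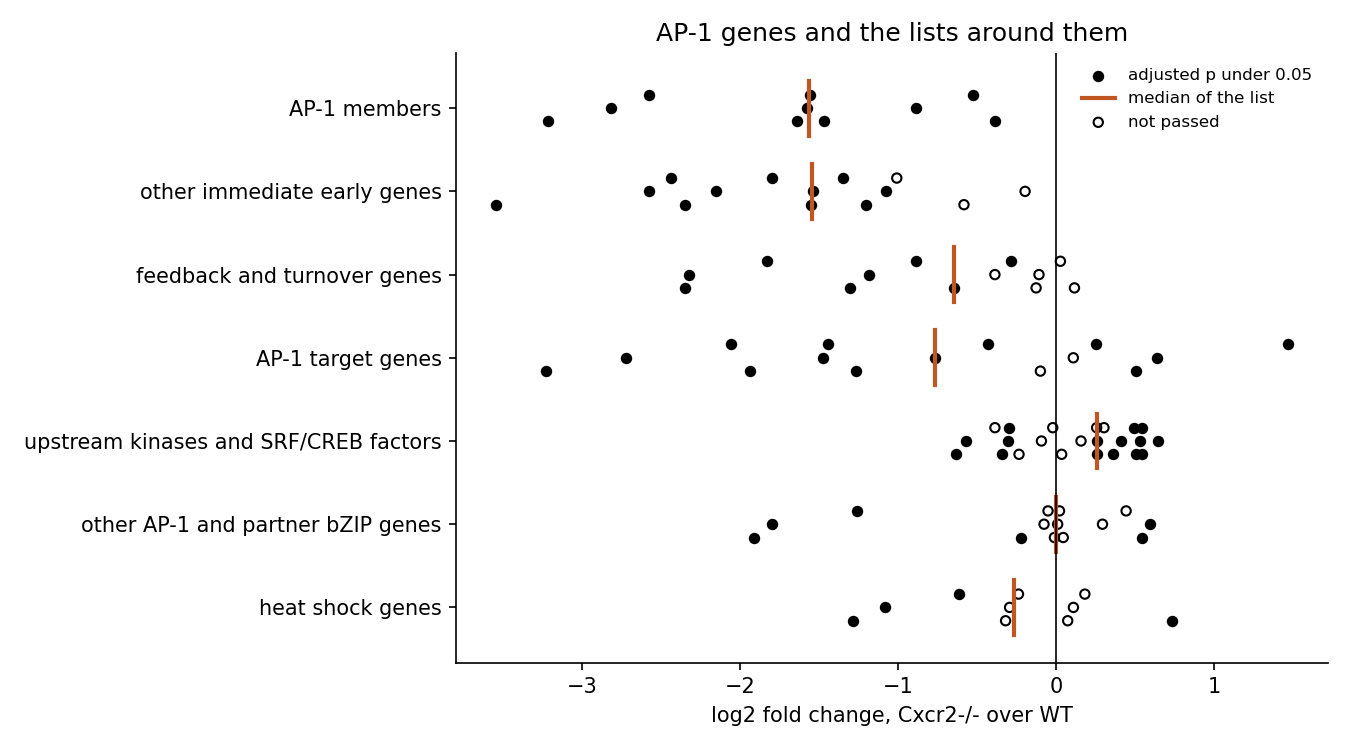
Log2 fold change (*Cxcr2-/-* over WT) of every tested gene of each list, as filled points where the adjusted p was under 0.05 and open points elsewhere, with the list median as a bar. The members and the other immediate early genes have medians of -1.57 and -1.54, the other AP-1 and bZIP genes one of 0.00 and the upstream kinases and factors one of 0.26.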

How the data were processed

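Total RNA of sorted spleen neutrophils was depleted of ribosomal RNA and made into directional paired-end libraries. Per the labels and methods, the authors trimmed the reads (minimum length 120 bp), aligned them to mm10 with STAR, counted them with HTSeq and deposited whole-number counts per gene without normalization. Versions, annotation and strand setting of the counting are not given in the sources used here. HTSeq's own totals were left out of library sizes (pairs that met no gene, 31.4% to 41.5% of all in WT and 26.7% to 31.9% in *Cxcr2-/-* libraries).

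Groups and replicate numbers came from the labels. The methods speak of animals, and the libraries were taken as 1 per mouse. Within a group no pair of libraries agreed within sampling noise (chi-square divided by the number of genes, 23.9 to 99.0). Of 55414 identifiers, 52081 matched GENCODE M21 without the version suffix, which differed for 52046, and 3333 did not match.

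Counts were tested in R 4.3.3 with edgeR 4.0.16 (quasi-likelihood test, TMM factors, filterByExpr, Benjamini-Hochberg adjustment over 16778 genes), with DESeq2 1.42.0, the tool of the methods, as an alternative. The SE of a log2 fold change is its size divided by the square root of the F statistic. CPM are counts scaled by the TMM-normalized library size. The p-values set the difference between genotypes against the spread between these mice, which edgeR estimates with information shared over genes. The edgeR steps were tested on simulated counts. Motifs were searched in RefSeq promoter windows, which were found for all 10 members.

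The members and gene lists were chosen with earlier results of these data known. Named are all members, in each list the largest and smallest change and up to 4 genes with the lowest p that passed, and the 5 genes most like the members among those whose log2 CPM averaged 3 or more. *Nfe2l2*, *Bach2*, *Elk4*, *Mapk14*, *Klf4*, *Mmp9*, *Tnf*, *Hmox1*, the antisense genes and the single markers were named outside this rule after their values were seen. Alternatives were other normalizations and filters, the replicate block, 3 covariates (1 added after seeing the data), a 2-fold threshold and each library left out. *Rps6ka4* of the upstream list was not analysed here, and 1 gene of the lists is not reported here.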

Additional observations from a re-analysis of the deposited data

Results flagged for a closer look

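The level of *Batf* in WT replicate 1, 24.4 CPM, stood apart from the other 3 WT mice, which lay between 21.9 and 22.3 CPM. Its gap to the nearest mouse made up 0.853 of the group's whole range, above Dixon's 95% critical value for 4 samples. It was 1 of the 20 member and genotype groups tested, and chance marks about 1 in 20. Without this library the log2 fold change of *Batf* was -0.34 (edgeR, adjusted p = 0.0517).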

How the results depend on the processing

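All 10 members stayed lower in *Cxcr2-/-* neutrophils under each of the alternatives run, and 171 of 180 member values kept their side of the threshold. With the level of non-neutrophil markers as a covariate, 4 members passed and 4 were also changed at least 1.5-fold, and 1 other bZIP gene, 3 upstream genes (all lower), 3 feedback genes (2 lower, 1 higher), 2 targets (1 lower, 1 higher) and 6 other immediate early genes (5 lower, 1 higher) passed. The members lost were *Fosb* (adjusted p = 0.119), *Fosl2* (0.0516), *Jun* (0.653), *Maff* (0.324), *Mafk* (0.180) and *Batf* (0.548). This covariate does not overlap between the genotypes, and the cause was not tested. Over all 16778 genes tested, 1173 fell and 1587 rose with it, against 3526 and 3969 without a covariate. The share of pairs that met no gene as the covariate left 1486 lower and 1597 higher. With the share of pairs that met no gene as a covariate, 1 other bZIP gene and 3 upstream genes (all lower) and 7 targets (6 lower, 1 higher) passed, and of the members *Jun* was lost (log2 fold change -1.05, adjusted p = 0.160). Leaving out each library in turn gave 9 to 10 members passing and 8 to 9 changed at least 1.5-fold, 4 to 6 other bZIP genes, 10 to 12 upstream genes, 8 feedback genes in each case, 11 to 12 targets and 11 to 12 other immediate early genes. Upper-quartile scaling moved the median of all genes to -0.11 and the genes called to 1975 higher and 3227 lower, against 2628 and 2628, and scaling by total counts gave 2051 and 2990. Mice with the same replicate number did not deviate together (r = 0.15, -0.19, 0.24 and -0.31), and with the replicate block 10 members passed, 8 were changed at least 1.5-fold, and 6 other bZIP genes, 15 upstream genes, 8 feedback genes, 13 targets and 12 other immediate early genes passed. Depth limits few of the member values, since the lowest member, *Maff*, had a mean of 9.13 CPM in *Cxcr2-/-* mice. *Timp1* and *Batf2* stood below 1 CPM. *Batf3* and *Bach2*, which fell, had means of 0.843 and 0.650 CPM in *Cxcr2-/-* mice.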
